A study of Mus musculus with 12 samples.

Results

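CD4 T cells labelled RARα TG were compared with wild-type (WT) CD4 T cells in the absence of added retinoic acid (RA), over 4 of the 12 RNA-seq libraries of the study, 2 per genotype, and over all 11922 genes with a value of at least 1 FPKM (reads scaled by exon length and library depth) in at least 2 of the 12 libraries. Both groups started from naive CD4 T cells, at a stated purity above 95%, of mice of the inbred strain C57BL/6. All had been cultured for 24 h in medium with charcoal-stripped serum, which holds little retinoid, and with antibodies to CD3 and CD28 that activate the T-cell receptor. The culture held 20 ng/mL interleukin (IL)-6, 10 ng/mL each of IL-23, IL-21 and IL-1β, 5 ng/mL each of TGFβ-1 and TNFα, and antibodies that block interferon-γ and IL-4 at 10 µg/mL, a mixture that drives cells towards the IL-17-producing Th17 state. The other 8 libraries were WT and TG cells with 10 nM RA, and cells labelled RARα KO without and with 10 nM RA. The TG construct and its promoter, the KO allele and the ages of the mice are not given by the labels. Whether replicates are separate animals is not in the labels. The 2 TG libraries differed in sex by their transcripts, given below, and so came from different mice. For WT this is open. The p-values measure the spread between these libraries, part of which may be technical.

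RARα, the product of Rara, is a nuclear receptor that sits on DNA as a heterodimer with a retinoid X receptor (RXR). Without ligand the heterodimer holds corepressors such as NCoR and SMRT with histone deacetylases, and genes under its control are repressed. RA releases the corepressors and brings in coactivators. In T cells RA is known for inducing gut-homing receptors and Foxp3 and for restraining the Th17 programme.

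The depth by which values had been scaled, recovered from the spacing of low values, was 22567762 and 17713512 reads in WT replicates 1 and 2 and 19734846 and 25534588 in TG. Xist and Y-linked transcripts placed both WT libraries and TG replicate 1 as male and TG replicate 2 as female. They placed all libraries labelled KO as female, so wherever KO-labelled and WT libraries are set side by side, label and sex differ together. WT replicate 2 stood apart in transcripts of antigen-presenting cells. The summed level of 10 B-cell markers was 30.1 and 103 FPKM in WT and 32.6 and 35.5 in TG, and that of 7 dendritic or class II markers was 23.7 and 157 FPKM in WT and 27.5 and 43.8 in TG. The sum for 6 macrophage markers was 4.04 and 16.3 FPKM in WT and 3.91 and 6.23 in TG. None of the 9, 5 and 2 tested members of these 3 lists was called. The sum for 7 markers of CD4 T cells was 994 and 922 FPKM in WT and 929 and 828 in TG, and that for 2 CD8 markers was between 2.01 and 2.64 FPKM in the 4 libraries.

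The level of the receptor gene itself came first. Rara (chromosome 11, 98927818 to 98974942, GRCm38, identifier ENSMUSG00000037992) stood at 16.5 and 18.9 FPKM in WT and at 72.8 and 63.3 in TG. Both TG libraries lay above both WT libraries, by 3.84-fold in mean FPKM and by 1.88 ± 0.09 in log2(FPKM + 1) (fold change ± SE, limma adjusted p = 3.1e-05, n = 2 per group). Every fold change below is on this log2(FPKM + 1) scale, on which changes of low genes are understated. In the libraries labelled KO without RA, Rara stood at 19.5 and 19.3 FPKM, as high as in WT, so the level of the gene does not check that label. A value per gene does not separate construct transcripts from endogenous ones. Of 21 other tested genes that start or lie within 500 kb of Rara, 1 was called: Thra, a thyroid hormone receptor gene, stood at 2.91 and 2.92 FPKM in WT and 4.21 and 4.15 in TG (0.40 ± 0.07, adjusted p = 0.023). Its call ended without any 1 of the 4 libraries (0.39 to 0.41) and with a term for sex (0.40, adjusted p = 0.08).

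Among partners and cofactors of the receptor 0 were called in this fit, and the call of Rxra depended on the fit. Rarg, a second RA receptor gene, stood at 4.09 and 3.96 FPKM in WT and 6.62 and 5.90 in TG (0.53 ± 0.15, adjusted p = 0.094). Its partner gene Rxra stood at 6.84 and 7.48 FPKM in WT and 9.36 and 12.3 in TG (0.53 ± 0.13, adjusted p = 0.061). It was called by limma-voom on recovered reads (0.60, adjusted p = 0.026) and by limma without TG replicate 1 (0.71, adjusted p = 0.039). Rxrb, the more abundant partner, stood at 27.3 and 26.5 FPKM in WT and 25.6 and 26.8 in TG (-0.04 ± 0.06, adjusted p = 0.81). Rarb was listed at 0 in all 4 libraries. Of 18 nuclear receptor corepressor genes 0 were called, with a median log2 fold change of 0.00 and a range of -0.41 to 0.24. Ncor1, which encodes NCoR, stood at 28.8 and 26.0 FPKM in WT and 31.9 and 23.8 in TG, and Hdac3, the deacetylase that NCoR activates, at 30.5 and 30.8 FPKM in WT and 30.2 and 32.6 in TG. Of 13 coactivator genes 0 were called, with a median of -0.01. By limma 3 of the 18 and 1 of the 13 had an unadjusted p under 0.05, as did 2238 of all 11922 tested genes. Limma-voom on recovered reads called 1 of the 18 and 0 of the 13.

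Without RA, 514 genes (4.31% of those tested) differed between TG and WT at a Benjamini-Hochberg adjusted p under 0.05, and are said to have been called. Of these, 268 rose (2.25%) and 246 fell (2.06%), and 45 rises and 49 falls were of 2-fold or more. The shares of 2.25% and 2.06% are the background for each list count below. All 514 called genes had both libraries of one genotype above both of the other, which 48.1% of all tested genes did. The median log2 fold change of all tested genes was 0.01. The number of calls fell whichever 1 of the 4 libraries was left out. Such a fit leaves 1 library in a group, and that library is taken to vary as much as the other groups do. A call that ends there can reflect the lost replicate as well as a changed fold change. With a term for sex, 200 genes passed. Only the TG groups held both sexes, so this term came from TG replicate 2 against TG replicate 1. It cannot be told apart from other differences between these replicates. When only the 4 libraries entered the fit, 47 genes passed. In bulk RNA, fewer cells of a type and less RNA per cell cannot be told apart.

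Among the largest rises were genes low in WT. Gcnt4 (chromosome 13, 96924689 to 96950906), which encodes a glycosyltransferase that branches O-linked sugars, stood at 0.340 and 0.266 FPKM in WT and 7.32 and 8.85 in TG (2.80 ± 0.12, adjusted p = 2.4e-05). Both TG libraries were far above both WT libraries, 26.7-fold in mean FPKM, and in the libraries labelled KO the gene stood at 0.170 and 0.149 FPKM. Capsl, a gene for a calcium-binding protein, stood at 1.26 and 1.19 FPKM in WT and 6.11 and 6.17 in TG (1.68 ± 0.16, adjusted p = 0.0015). Lgals3, which encodes galectin-3, a sugar-binding protein, stood at 1.86 and 1.43 FPKM in WT and 8.15 and 9.21 in TG (1.88 ± 0.20, adjusted p = 0.0021), and the libraries labelled KO, at 8.27 and 9.30 FPKM, were as high as TG. Nedd4, a ubiquitin ligase gene, stood at 4.32 and 4.28 FPKM in WT and 15.4 and 17.5 in TG (1.72 ± 0.16, adjusted p = 0.0012). For these 4 genes the call held without each of the 4 libraries in turn.

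Other large rises included surface and cytoskeletal genes. Klrd1, which encodes the CD94 receptor of natural killer and cytotoxic cells, stood at 11.1 and 13 FPKM in WT and 44.4 and 50 in TG (1.88 ± 0.34, adjusted p = 0.022). The summed level of 6 markers of natural killer and innate cells was 1.76 and 8.56 FPKM in WT and 2.68 and 2.70 in TG. The IL-7 receptor gene Il7r stood at 5.72 and 5.10 FPKM in WT and 24.6 and 20.2 in TG (1.86 ± 0.35, adjusted p = 0.025). Ly6c1, which encodes a Ly6 surface antigen whose reads may be divided with near-identical paralogs, stood at 9.22 and 7.98 FPKM in WT and 37.0 and 28.7 in TG (1.81 ± 0.23, adjusted p = 0.0048). In each of these genes both TG libraries were well above both WT libraries. Vim, which encodes the intermediate filament protein vimentin, stood at 68.9 and 99.0 FPKM in WT and 224 and 303 in TG (1.65 ± 0.31, adjusted p = 0.024). Lmna, which encodes the nuclear lamins A and C, stood at 2.14 and 3.24 FPKM in WT and 7.61 and 12.7 in TG (1.57 ± 0.22, adjusted p = 0.0080). Crispld2, a gene for a secreted protein, stood at 13.5 and 10.7 FPKM in WT and 37.8 and 38.0 in TG (1.58 ± 0.21, adjusted p = 0.0062) and its call ended without WT replicate 2 (1.43) or TG replicate 2 (1.58). The call of Klrd1 ended without any 1 of the 4 libraries (1.78 to 1.99) and with a term for sex (1.78, adjusted p = 0.081). The call of Il7r ended without any 1 of the 4 libraries (1.73 to 2.00). The call of Vim ended without any 1 of the 4 libraries (1.39 to 1.90) and with a term for sex (1.51, adjusted p = 0.087), and that of Lmna without WT replicate 1 (1.36).

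**Figure D1:**
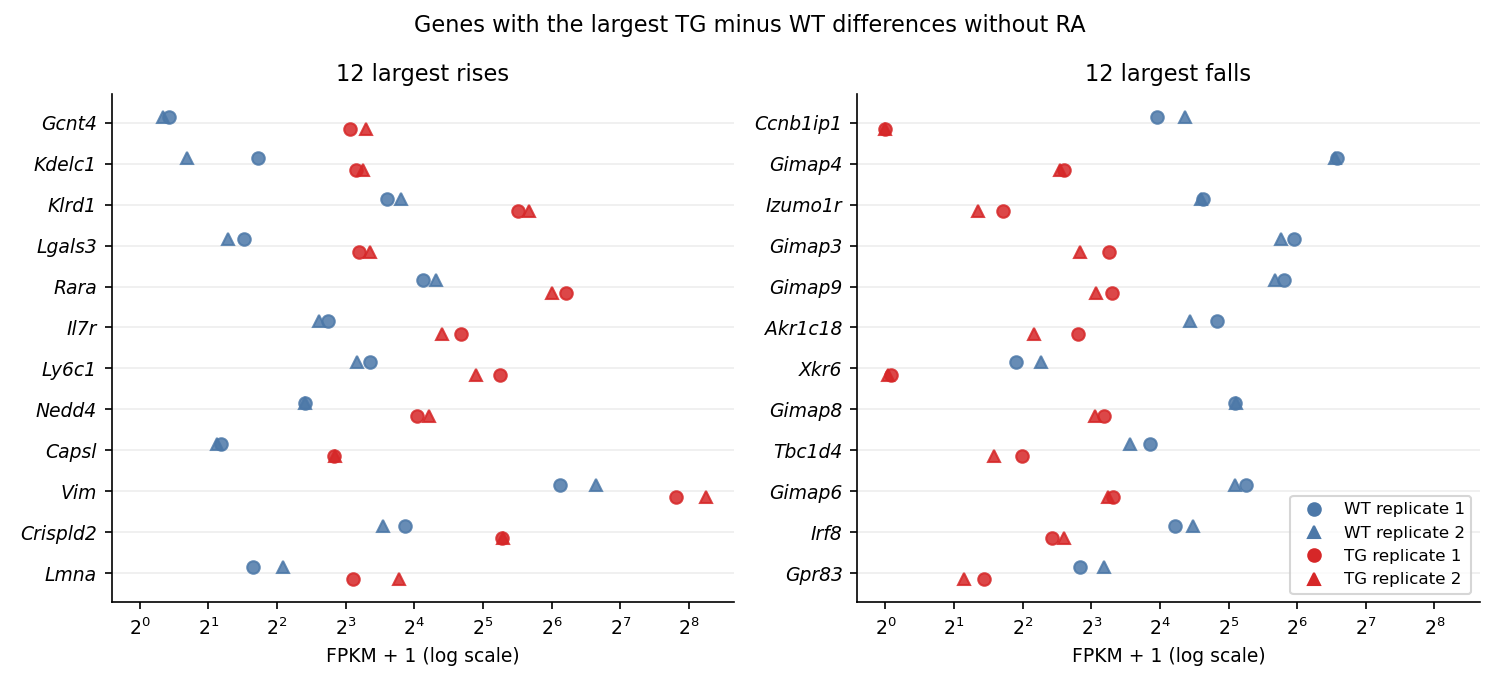
FPKM + 1 on a log scale for each of the 2 WT (blue) and 2 TG (red) libraries without RA, for the 12 genes with the largest rises and the 12 with the largest falls. In every gene both libraries of one genotype lie on one side of both libraries of the other, and in Gcnt4 the TG libraries stand at 7.32 and 8.85 FPKM against 0.340 and 0.266 in WT.

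The falls were led by the Gimap genes, whose products are small GTPases that support the survival of lymphocytes. The family lies in one cluster on chromosome 6, from Gimap8 at 48647234 to Gimap3 at 48770851, and all 8 of its tested genes fell. Gimap4 stood at 95.1 and 93.2 FPKM in WT and at 5.08 and 4.84 in TG (-4.00 ± 0.26, adjusted p = 0.00017), a mean 19.0-fold lower. Gimap3 stood at 61.2 and 53.3 FPKM in WT and 8.53 and 6.12 in TG (-2.82 ± 0.18, adjusted p = 0.00017). Gimap9 stood at 54.9 and 49.9 FPKM in WT and 8.83 and 7.35 in TG (-2.56 ± 0.12, adjusted p = 3.1e-05). In these 3 genes the TG libraries were far below the WT libraries, and the libraries labelled KO, at 82.4 to 108 FPKM for Gimap3 and 127 to 173 for Gimap4, were above WT. Gimap8 fell by 1.98 ± 0.12, Gimap6 by 1.89 ± 0.15 and Gimap1 by 1.57 ± 0.08. Gimap5, the member best known for its loss in rodents with few T cells, stood at 5.11 and 5.24 FPKM in WT and 1.28 in each TG library (-1.43 ± 0.06, adjusted p = 2.4e-05). Gimap7, the lowest member in WT, stood at 1.47 and 1.41 FPKM in WT and 0.153 and 0.101 in TG (-1.11 ± 0.22, adjusted p = 0.029). The call of Gimap7 ended without any 1 of the 4 libraries (-1.15 to -1.08) and with a term for sex (-1.15, adjusted p = 0.082), while the other 7 Gimap genes were called in all of these fits. Gimap1os, an antisense RNA gene that overlaps Gimap1, is not among the 8. Gimap genes are paralogs and neighbours, and neither the use of strand in counting nor the treatment of reads shared between gene models is stated in the labels.

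The sequence before the start of 4 called genes is given next, from RefSeq (GRCm38.p6) as examples of the letters that RA receptors read. The hexamer AGGTCA was searched with its 3 variants, to which RAR and RXR also bind in pairs. The first variant is GGGTCA. The second variant is AGTTCA. The last variant is GGTTCA. They were searched on both strands in the 250 bases before each start and are in capitals. Gcnt4 is the largest rise, and Gimap5 and Gimap9 are members of the cluster that fell. Cxcl10, a chemokine gene that rose, was chosen after its motif was seen and holds a direct repeat of 2 hexamers with 1 base between them. Each is read 5′ to 3′ on the strand of the gene and stops before the first base of any annotated exon.
Gcnt4 (+ strand, chr13:96924463-96924688): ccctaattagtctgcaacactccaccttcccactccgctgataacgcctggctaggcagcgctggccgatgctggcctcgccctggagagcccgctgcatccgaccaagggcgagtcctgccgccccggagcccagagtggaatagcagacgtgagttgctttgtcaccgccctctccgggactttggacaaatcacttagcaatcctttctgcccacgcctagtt
Gimap5 (+ strand, chr6:48745947-48746196): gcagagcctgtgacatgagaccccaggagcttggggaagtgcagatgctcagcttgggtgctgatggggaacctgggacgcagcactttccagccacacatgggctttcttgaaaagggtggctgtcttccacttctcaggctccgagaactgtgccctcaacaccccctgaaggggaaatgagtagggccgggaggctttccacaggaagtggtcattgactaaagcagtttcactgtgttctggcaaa
Gimap9 (+ strand, chr6:48675885-48676128): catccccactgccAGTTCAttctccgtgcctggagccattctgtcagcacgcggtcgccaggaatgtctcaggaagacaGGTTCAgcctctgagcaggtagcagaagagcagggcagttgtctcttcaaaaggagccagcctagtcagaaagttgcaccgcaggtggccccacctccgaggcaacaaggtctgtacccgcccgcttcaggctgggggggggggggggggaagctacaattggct
Cxcl10 (- strand, chr5:92348890-92349139): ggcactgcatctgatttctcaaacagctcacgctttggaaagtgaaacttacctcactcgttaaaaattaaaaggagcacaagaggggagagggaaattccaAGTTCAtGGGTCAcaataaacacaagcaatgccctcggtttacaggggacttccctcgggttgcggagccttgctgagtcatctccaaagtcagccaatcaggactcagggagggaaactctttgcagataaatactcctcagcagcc
At least 1 such hexamer stands in 38.6% of the 32851 starts of the table, and a direct repeat with 1 base between in 0.164%, with 2 bases in 0.174% and with 5 bases in 0.0883%. Of the 8 Gimap genes 1, Gimap9, holds a hexamer in this window, with AGTTCA beginning 237 bases before the start and another, GGTTCA, beginning 171 bases before it. In Cxcl10 the pair begins 148 and 141 bases before the start. Only 8539 of the 11922 tested genes (71.6%) have a start in the table, so no share among called genes is given. A match is a description of the letters, and no match says only that these letters are not in this window.

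**Figure D2:**
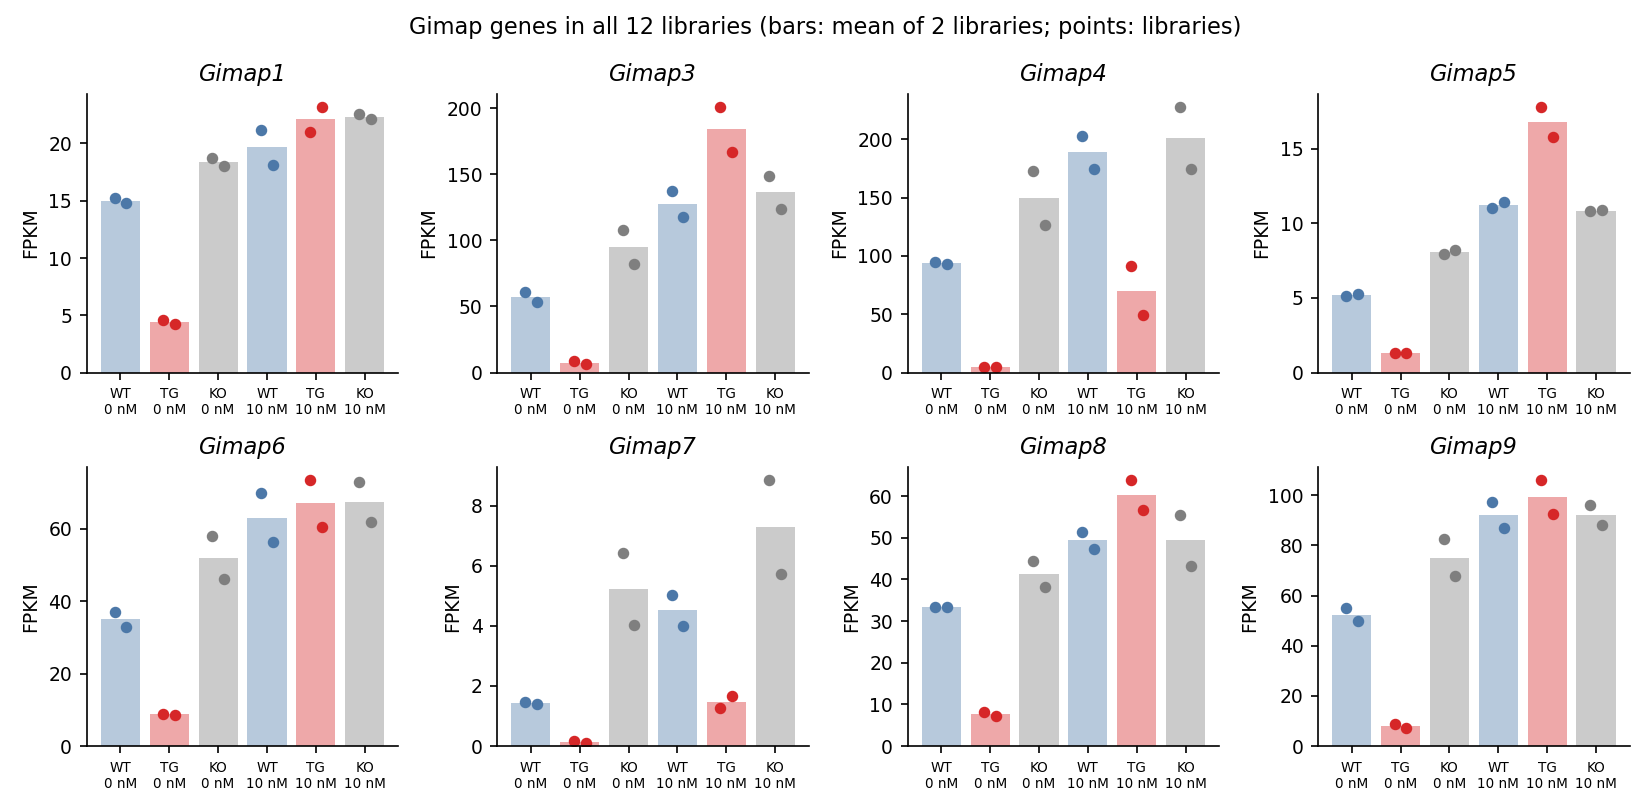
FPKM of the 8 tested Gimap genes in all 12 libraries: WT (blue), TG (red) and KO-labelled (grey) at 0 and 10 nM RA, with bars for the mean of 2 libraries and points for the libraries. Without RA the TG bars are the lowest in each panel, and with 10 nM RA their mean is above that of WT except in Gimap4 and Gimap7.

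Other large falls included genes of regulatory T cells. Izumo1r (chromosome 9, 14885814 to 14903949), which encodes folate receptor 4 of regulatory T cells, stood at 23.6 and 23.3 FPKM in WT and 2.27 and 1.55 in TG (-3.08 ± 0.15, adjusted p = 3.1e-05), a mean 12.3-fold lower. Gpr83, an orphan receptor gene of regulatory T cells, stood at 6.12 and 8.12 FPKM in WT and 1.71 and 1.21 in TG (-1.72 ± 0.29, adjusted p = 0.016). Foxp3, which encodes the lineage regulator of this cell type, stood at 9.95 and 12.3 FPKM in WT and 3.66 and 4.29 in TG (-1.28 ± 0.25, adjusted p = 0.028). The KO-labelled libraries stood at 39.4 and 39.9 FPKM for Izumo1r, 6.66 and 9.75 for Gpr83 and 22.6 and 30.6 for Foxp3. Ctla4, an inhibitory receptor gene, stood at 298 and 269 FPKM in WT and 185 and 195 in TG (-0.57 ± 0.11, adjusted p = 0.029). The list of 20 tested regulatory T-cell genes held these 4 falls and 2 rises (2.06% and 2.25% of all tested genes). Its median log2 fold change was -0.04. The rises were Lag3, an inhibitory receptor gene, at 15.6 and 11.8 FPKM in WT and 36.1 and 29.7 in TG (1.21 ± 0.15, adjusted p = 0.0048), and Nt5e, which encodes the ecto-enzyme CD73, at 10.9 and 9.73 FPKM in WT and 21.9 and 16.7 in TG (0.83 ± 0.18, adjusted p = 0.043). The number of called members was 2 in each fit that left out 1 library and with a term for sex. The call of Gpr83 ended without any 1 of the 4 libraries (-1.90 to -1.54) and with a term for sex (-1.63, adjusted p = 0.066). The call of Foxp3 ended without any 1 of the 4 libraries (-1.42 to -1.14) and with a term for sex (-1.36, adjusted p = 0.075), and that of Nt5e without any 1 of the 4 libraries (0.65 to 1.02) and with a term for sex (0.95, adjusted p = 0.07). The call of Ctla4 ended without any 1 of the 4 libraries (-0.65 to -0.50) and with a term for sex (-0.61, adjusted p = 0.075).

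A further group of falls held a transcription factor, a metabolic regulator and an enzyme. Irf8 (chromosome 8, 120736358 to 120756694), an interferon regulatory factor gene expressed in activated T cells and more strongly in B and myeloid cells, stood at 17.6 and 21.4 FPKM in WT and 4.38 and 5.05 in TG (-1.84 ± 0.19, adjusted p = 0.0020). Its fold change without each library in turn ran from -1.97 to -1.70. The value without WT replicate 2, in which the B-cell and class II sums were high, was -1.70. Whether the mixture of cells bears on this fall was not tested. Tbc1d4, which regulates glucose transporter traffic, stood at 13.5 and 10.8 FPKM in WT and 2.97 and 1.98 in TG (-1.93 ± 0.27, adjusted p = 0.0073). Akr1c18, a hydroxysteroid dehydrogenase gene, stood at 27.6 and 20.7 FPKM in WT and 6.00 and 3.50 in TG (-2.15 ± 0.35, adjusted p = 0.015). The call of Tbc1d4 ended without WT replicate 1 (-1.78) or TG replicate 2 (-1.72), and that of Akr1c18 without WT replicate 1 (-1.95), WT replicate 2 (-2.35) or TG replicate 2 (-1.83) and with a term for sex (-1.95, adjusted p = 0.06).

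Genes known to be induced by RA were examined as a list, because RA receptors act on them directly or indirectly. Of 16 tested members 0 rose, 1 fell (2.06% of all tested genes did) and 15 did not pass. Their median log2 fold change was -0.04. The fall was Tgm2, which encodes tissue transglutaminase, at 8.75 and 10.0 FPKM in WT and 3.23 and 3.46 in TG (-1.25 ± 0.15, adjusted p = 0.0048), and it was called without each library in turn. Several other members were low in both genotypes. Hic1, which encodes a repressor, stood at 0.319 and 0.497 FPKM in WT and 0.243 and 0.136 in TG (-0.24 ± 0.25, adjusted p = 0.68). Itga4, the gene of the α4 integrin, stood at 1.38 and 1.22 FPKM in WT and 1.02 and 0.667 in TG (-0.32 ± 0.15, adjusted p = 0.28). Ccr9, a gut-homing chemokine receptor gene, stood at 0.00432 and 0.0110 FPKM in WT and was listed at 0 in both TG libraries. Asb2, Stra6, Dhrs3 and Cyp26b1 each stood at 0.251 FPKM or less in all 4 libraries. These genes and Ccr9 passed the filter only through libraries with 10 nM RA. Their levels left little room for a fall on this scale, and they enter the median and the count that did not pass. For Asb2, at 0.113 and 0.159 FPKM in WT and 0.0429 and 0.0332 in TG (-0.13 ± 0.16, adjusted p = 0.73), the groups did not overlap, and the scale of log2(FPKM + 1) understates such a difference. Cyp26a1, which degrades RA, was below the filter and listed at 0 in both WT libraries and TG replicate 1. Nrip1, a corepressor gene that RA induces, stood at 3.90 and 3.76 FPKM in WT and 2.87 and 2.41 in TG (-0.41 ± 0.12, adjusted p = 0.11), and Crabp2, which carries RA to its receptors, at 5.03 and 3.46 FPKM in WT and 4.10 and 3.85 in TG (-0.06 ± 0.24, adjusted p = 0.93). Gfi1, which encodes a repressor and is outside that list, stood at 2.84 and 1.93 FPKM in WT and 1.08 and 0.492 in TG (-0.93 ± 0.19, adjusted p = 0.035). The call of Gfi1 ended without WT replicate 1 (-0.73), WT replicate 2 (-1.12) or TG replicate 2 (-0.69) and with a term for sex (-0.82, adjusted p = 0.12). Of 14 tested genes of retinoid uptake, binding and metabolism, 1 was called: Rdh12, a retinal reductase gene, stood at 5.68 and 6.91 FPKM in WT and 4.44 and 4.25 in TG (-0.44 ± 0.09, adjusted p = 0.032). The call of Rdh12 ended without WT replicate 2 (-0.32), TG replicate 1 (-0.47) or TG replicate 2 (-0.42) and with a term for sex (-0.41, adjusted p = 0.11).

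RA-responsive genes were also taken from the 4 libraries labelled KO. These libraries do not enter the TG and WT means, but they add to the pooled error behind both the ranking and the calls, so that genes of small error are favoured in both. The 100 genes with the highest and the 100 with the lowest moderated t for 10 nM RA in those libraries were used, of which 16 and 1 passed the test there. Of the 100 genes that stood highest for RA in KO-labelled cells, 75 were lower in TG than in WT without RA and 24 were higher, 19 were called lower (2.06% of all tested genes were) and 4 were called higher, and the median of TG minus WT was -0.13. Of the 100 that stood lowest for RA in KO-labelled cells, 73 were higher in TG and 27 lower, 22 were called higher (2.25% of all tested genes were) and 3 called lower, and the median was 0.19. Over all tested genes 46.6% were lower and 53.2% higher, with a median of 0.01. The called counts ran from 7 to 11 and from 7 to 14 in fits that left out 1 library, and were 11 and 12 with a term for sex. When the error came from the 4 TG and WT libraries alone, 2 and 3 were called.

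Named members of these lists cover several functions. In the set that stood high for RA in KO-labelled cells, Treml2, a gene for a triggering receptor of the immunoglobulin family, stood at 29.5 and 24.7 FPKM in WT and 12 and 9.93 in TG (-1.23 ± 0.13, adjusted p = 0.0022), with an RA effect of 0.65 in KO-labelled cells. Tgm2, Gfi1 and Gimap5, given above, had RA effects of 0.87, 1.75 and 0.38 in KO-labelled cells and fell in TG. The 4 members that rose instead were Pdlim4 (1.29 ± 0.09), Nt5e (0.83 ± 0.18), Smpd5 (0.44 ± 0.06) and Mpv17l2 (0.27 ± 0.05). In the set that stood low for RA in KO-labelled cells, Vim had an RA effect of -1.60, Lgals3 of -1.43 and Icos of -0.82, and all 3 were higher in TG. Icos, a costimulatory receptor gene, stood at 57.9 and 57.5 FPKM in WT and 99.4 and 111 in TG (0.86 ± 0.14, adjusted p = 0.015). Dennd5a, which encodes a regulator of Rab GTPases, stood at 11.5 and 14.7 FPKM in WT and 36.1 and 44.0 in TG (1.55 ± 0.13, adjusted p = 0.00055). B4galnt4, a glycosyltransferase gene, stood at 4.57 and 5.01 FPKM in WT and 9.39 and 9.14 in TG (0.83 ± 0.07, adjusted p = 0.00074). The call of Icos ended without WT replicate 1 (0.86), WT replicate 2 (0.85) or TG replicate 2 (0.77), that of Smpd5 without WT replicate 2 (0.39), and those of Vim, Gfi1 and Nt5e as given above. The call of Mpv17l2 ended without any 1 of the 4 libraries (0.22 to 0.32) and with a term for sex (0.25, adjusted p = 0.1). Treml2, Pdlim4, Smpd5, Mpv17l2 and Dennd5a were named after their values were seen.

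**Figure D3:**
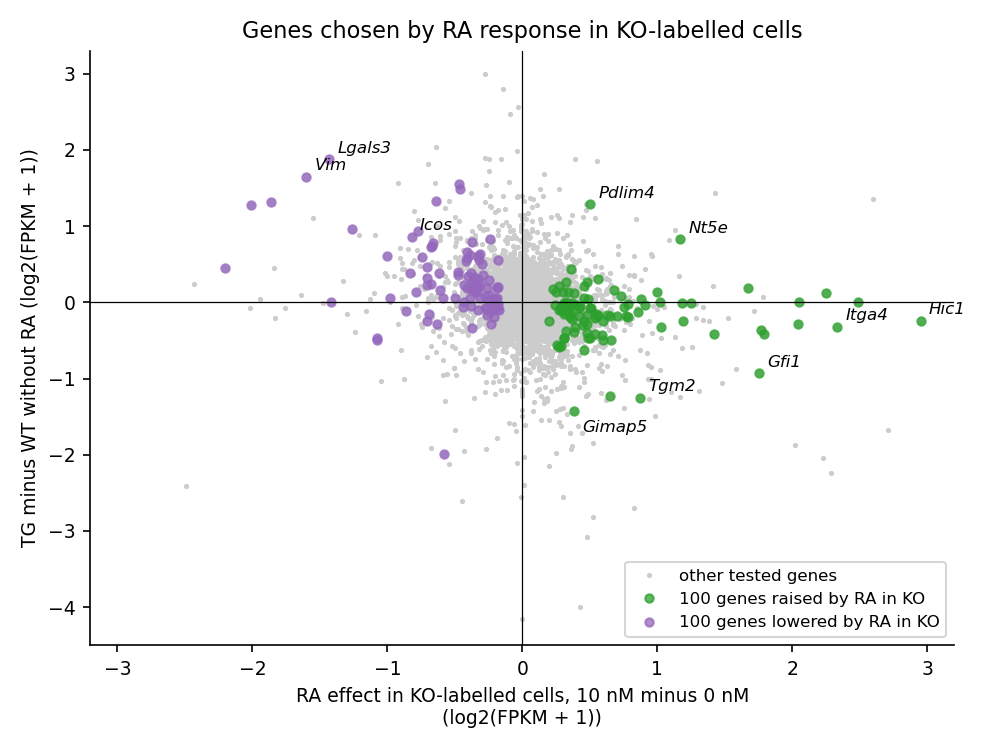
Each point is a tested gene, with the RA effect in KO-labelled cells (10 nM minus 0 nM) on the x axis and TG minus WT without RA on the y axis, both in log2(FPKM + 1); colours mark the 100 genes highest (green) and lowest (purple) by moderated t for RA in KO. Of the green genes 75 lie below 0 on the y axis, and of the purple genes 73 lie above it.

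The Th17 cytokines did not pass the test without RA in this fit. Among 24 tested Th17 genes there was 1 rise and 1 fall (2.25% and 2.06% of all tested genes). Their median log2 fold change was -0.05. Il17a stood at 7.98 and 10.0 FPKM in WT and 6.14 and 6.59 in TG (-0.43 ± 0.20, adjusted p = 0.28). Il17f stood at 412 and 554 FPKM in WT and 307 and 389 in TG (-0.47 ± 0.22, adjusted p = 0.29). For both IL-17 genes each TG library was below each WT library, by less than the test requires. Il22 stood at 2.44 and 8.60 FPKM in WT and 11 and 23.3 in TG (1.57 ± 0.50, adjusted p = 0.13), and Il21 at 59.5 and 62.2 FPKM in WT and 58.7 and 65.6 in TG (0.03 ± 0.06, adjusted p = 0.87). The rise was Il23r, which encodes the IL-23 receptor, at 0.249 and 0.272 FPKM in WT and 1.61 and 1.18 in TG (0.92 ± 0.14, adjusted p = 0.011). The fall was Cd5l, a lipid regulator of Th17 cells, at 2.24 and 2.61 FPKM in WT and 0.697 and 0.827 in TG (-0.96 ± 0.22, adjusted p = 0.050). The call of Il23r ended without WT replicate 1 (0.91), WT replicate 2 (0.93) or TG replicate 1 (0.79), and that of Cd5l without any 1 of the 4 libraries (-1.03 to -0.88) and with a term for sex (-0.93, adjusted p = 0.15).

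Among genes of other helper fates, 3 of 12 tested Th2 and Th9 genes rose (2.25% of all tested genes did). In this list 0 fell and the median was 0.00. Areg, which encodes the growth factor amphiregulin, stood at 0.328 and 0.372 FPKM in WT and 2.17 and 1.51 in TG (1.06 ± 0.14, adjusted p = 0.0063). Nfil3, a transcription factor gene, stood at 14.8 FPKM in each WT library and 23.2 and 29.7 in TG (0.79 ± 0.10, adjusted p = 0.0056). Crem, which encodes a cAMP-responsive regulator, stood at 9.0 and 8.23 FPKM in WT and 15.1 and 15.7 in TG (0.77 ± 0.10, adjusted p = 0.0048). Without each library in turn the fold changes ran from 0.90 to 1.23 for Areg, 0.62 to 0.96 for Nfil3 and 0.71 to 0.83 for Crem. These 3 genes were called with a term for sex. They were not called when only the 4 libraries entered the limma fit (adjusted p = 0.11, 0.13 and 0.059). The effector cytokine genes of these fates did not pass in this fit, although limma-voom on recovered reads called Il9 (1.29, adjusted p = 0.041). Il9 stood at 201 and 322 FPKM in WT and 447 and 849 in TG (1.27 ± 0.44, adjusted p = 0.16), and Il24 at 4.0 and 5.54 FPKM in WT and 6.73 and 14.9 in TG (0.96 ± 0.32, adjusted p = 0.15). Il10 stood at 5.75 and 7.46 FPKM in WT and 5.61 and 7.71 in TG, and Gata3, the Th2 regulator, at 0.602 and 0.539 FPKM in WT and 0.420 and 0.394 in TG (-0.16 ± 0.13, adjusted p = 0.59).

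The 18 tested Th1 and cytotoxic genes held 3 rises and 1 fall (2.25% and 2.06% of all tested genes), with a median of -0.43. Below 0 were 14 of the fold changes, and 4 were above. Beside Klrd1, the rises were Il12rb2, which encodes a chain of the IL-12 receptor, at 2.72 and 2.16 FPKM in WT and 9.35 and 6.87 in TG (1.40 ± 0.17, adjusted p = 0.0039), and Runx3, a transcription factor gene of cytotoxic and Th1 cells, at 15.5 and 16.8 FPKM in WT and 23.9 and 24.7 in TG (0.56 ± 0.10, adjusted p = 0.018). The fall was Stat4, which carries the IL-12 signal, at 2.45 and 2.61 FPKM in WT and 1.09 and 0.951 in TG (-0.81 ± 0.16, adjusted p = 0.029). The receptor chain for IL-12 was higher and the signal carrier lower in both TG libraries. Tbx21, the Th1 regulator, stood at 2.67 and 3.90 FPKM in WT and 1.47 and 1.5 in TG (-0.77 ± 0.29, adjusted p = 0.19), and Ifng, the interferon-γ gene, at 0.274 and 1.22 FPKM in WT and 0.352 and 0.272 in TG. Il12rb2 was called without each library in turn. The call of Runx3 ended without any 1 of the 4 libraries (0.51 to 0.61) and with a term for sex (0.52, adjusted p = 0.073), and that of Stat4 without any 1 of the 4 libraries (-0.86 to -0.76) and with a term for sex (-0.67, adjusted p = 0.086).

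Of 23 tested genes for cytokines and TNF-family ligands 0 rose, 4 fell (2.06% of all tested genes did) and 19 did not pass. Their median was -0.24. Il2, the growth factor gene of activated T cells, stood at 45.0 and 48.4 FPKM in WT and 19.4 and 20.2 in TG (-1.20 ± 0.07, adjusted p = 0.00011). Its fold change without each library in turn was -1.25 to -1.14 and it was called each time. Cd40lg, through which helper T cells act on B cells, stood at 30.5 and 40.5 FPKM in WT and 17.3 and 20.6 in TG (-0.86 ± 0.18, adjusted p = 0.032). Lif, a cytokine gene of the IL-6 family, stood at 35.6 and 42.6 FPKM in WT and 16.7 and 24.1 in TG (-0.92 ± 0.18, adjusted p = 0.028), and Ltb, the lymphotoxin-β gene, at 116 and 110 FPKM in WT and 93.4 and 88.2 in TG (-0.31 ± 0.06, adjusted p = 0.024). The call of Cd40lg ended without WT replicate 2 (-0.66), TG replicate 1 (-0.74) or TG replicate 2 (-0.98) and with a term for sex (-0.81, adjusted p = 0.11). The call of Lif ended without WT replicate 1 (-1.05), WT replicate 2 (-0.79) or TG replicate 1 (-0.67) and with a term for sex (-1.03, adjusted p = 0.051), and that of Ltb without any 1 of the 4 libraries (-0.35 to -0.27) and with a term for sex (-0.27, adjusted p = 0.085).

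Of 45 tested T-cell receptor signalling genes 0 rose, 7 fell (2.06% of all tested genes did) and 38 did not pass. Below 0 were 36 of the 45 fold changes, with a median of -0.13 against 0.01 over all genes. Ubash3b, a phosphatase gene that dampens the signal, stood at 16.4 and 16.1 FPKM in WT and 10.1 and 8.68 in TG (-0.73 ± 0.10, adjusted p = 0.0064). Cd4, the coreceptor of these cells, stood at 67.2 and 65.6 FPKM in WT and 49.9 and 46.6 in TG (-0.45 ± 0.07, adjusted p = 0.014). Fyn, a kinase gene, stood at 41.1 and 39.6 FPKM in WT and 31.7 and 30.3 in TG (-0.37 ± 0.07, adjusted p = 0.020). Each of these genes was lower in both TG libraries, by less than 2-fold. Nfatc1, a transcription factor activated by the receptor's calcium signal, stood at 14.7 and 14.8 FPKM in WT and 11.9 and 9.95 in TG (-0.41 ± 0.08, adjusted p = 0.030). The called members numbered 0 without TG replicate 2, 1 without either WT library and 3 without TG replicate 1, and 2 with a term for sex. The call of Ubash3b ended without TG replicate 2 (-0.63), and that of Cd4 without WT replicate 1 (-0.44), WT replicate 2 (-0.47) or TG replicate 2 (-0.41). The call of Fyn ended without any 1 of the 4 libraries (-0.40 to -0.34) and with a term for sex (-0.33, adjusted p = 0.075), and that of Nfatc1 without WT replicate 1 (-0.42), WT replicate 2 (-0.41) or TG replicate 2 (-0.30) and with a term for sex (-0.32, adjusted p = 0.056).

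Genes of the vimentin, galectin, annexin and S100 families rose where they were called. Of 22 tested members 5 rose (2.25% of all tested genes did), 0 fell and 17 did not pass. Above 0 were 19 fold changes, and the median was 0.27. Beside Vim and Lgals3, the rises were Lgals1, which encodes galectin-1, at 153 and 194 FPKM in WT and 278 and 342 in TG (0.84 ± 0.16, adjusted p = 0.026), Ahnak, a giant scaffold protein gene, at 4.08 and 4.51 FPKM in WT and 15 and 9.98 in TG (1.33 ± 0.18, adjusted p = 0.0076), and Anxa6, which encodes annexin A6, at 41.8 and 42.8 FPKM in WT and 59.1 and 61.9 in TG (0.50 ± 0.07, adjusted p = 0.0062). Between 2 and 3 members were called in fits that left out 1 library. The call of Ahnak ended without WT replicate 1 (1.27), and that of Anxa6 without TG replicate 2 (0.47). The call of Lgals1 ended without any 1 of the 4 libraries (0.67 to 1.01) and with a term for sex (0.74, adjusted p = 0.091).

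The list for the unfolded protein response and the integrated stress response held 29 tested genes. Of these 7 rose (2.25% of all tested genes did) and none fell, with 24 fold changes above 0 and a median of 0.20. Sdf2l1, which encodes a chaperone cofactor of the endoplasmic reticulum, stood at 51.5 and 48.9 FPKM in WT and 74.2 and 73.4 in TG (0.55 ± 0.05, adjusted p = 0.0013), and was called without each library in turn. Atf6, a stress sensor gene, stood at 7.09 and 7.72 FPKM in WT and 10.9 and 10.8 in TG (0.49 ± 0.07, adjusted p = 0.0093). Trib3, an induced pseudokinase gene of the integrated stress response, stood at 4.84 and 5.10 FPKM in WT and 8.66 and 13 in TG (0.96 ± 0.15, adjusted p = 0.011). Sel1l, Pdia6, Creld2 and Edem1, which serve protein folding and disposal in the endoplasmic reticulum, rose by 0.23 to 0.36, and each of these 4 calls ended without any 1 of the 4 libraries. The number of called members, not always the same genes, was 1 without WT replicate 1, 2 without WT replicate 2 or TG replicate 2, 5 without TG replicate 1 and 4 with a term for sex. The call of Atf6 ended without WT replicate 1 (0.44), TG replicate 1 (0.48) or TG replicate 2 (0.50), and that of Trib3 without WT replicate 1 (0.93) or WT replicate 2 (1.00).

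Housekeeping and proliferation genes were not called. None of 38 ribosome biogenesis genes, 40 genes of DNA replication and S phase, 32 mitosis genes, 32 genes of sterol and fatty acid synthesis, 15 DNA methylation and demethylation enzymes and 10 genes of the Myc, Max and Mxd network passed the test. Their medians were -0.02, -0.03, 0.13, -0.02, 0.02 and -0.01, and 30 of the 32 mitosis genes were above 0. An unadjusted limma p under 0.05 was found for 0, 0, 0, 7, 4 and 2 members of the ribosome, replication, mitosis, sterol, DNA methylation and Myc lists. Over all 11922 tested genes it was found for 2238. These 6 lists held 0 calls in each fit that left out 1 library and in the fit with a term for sex, while limma-voom on recovered reads called 1 gene of the Myc network.

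**Figure D4:**
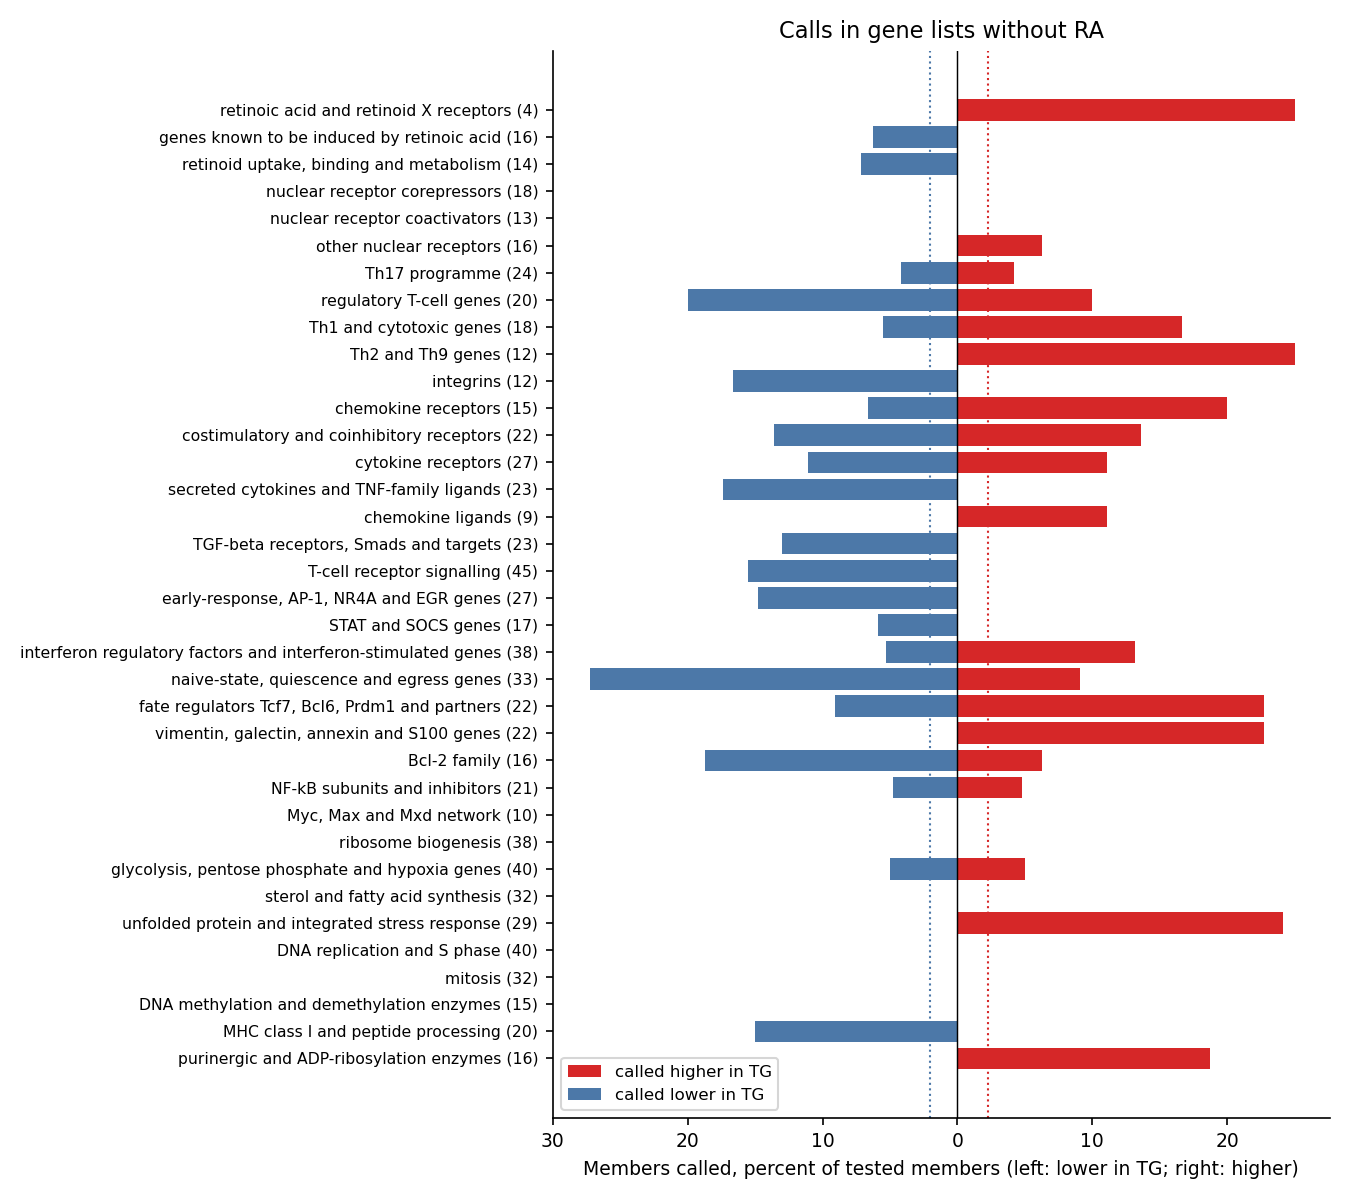
Percent of tested members called higher (red, right) or lower (blue, left) in TG than in WT without RA, for each gene list, with the number of tested members in brackets; dotted lines mark the share of all tested genes called in each direction (2.25% and 2.06%). Naive-state genes, which include the 8 Gimap genes, hold the longest bar on the left, and the corepressor and coactivator lists and 6 lists of housekeeping or proliferation genes hold no bar. Of the 33 tested naive-state genes 9 were called lower, the 8 neighbouring Gimap genes and Foxp1. Ly6c1, Il7r and Satb1 were called higher.

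The same contrast at 10 nM RA rests on 4 other libraries, which may not be independent of those at 0 nM. Same-numbered libraries were alike in some transcripts. Cd74 read 12.7 FPKM at 0 nM and 12.4 at 10 nM in WT replicate 1, against 82.7 and 84.7 in WT replicate 2. TG replicate 1 was male and TG replicate 2 female by transcripts at both doses. Whether such libraries share a cell source was not tested, and the fit did not pair them. At 10 nM, 816 genes (6.84% of those tested) were called higher in TG and 553 (4.64%) lower. Of the 268 genes that rose without RA, 66 were called higher, 28 lower and 174 not called at 10 nM, and their median log2 fold change was 0.54 without RA and 0.08 with RA. Of the 246 that fell without RA, 60 were called lower, 58 higher and 128 not called at 10 nM, and their median was -0.53 without RA and -0.02 with RA. Both sets were chosen by their values without RA, so smaller medians with RA are partly set by that choice. The difference of TG minus WT between the doses was itself tested, and 566 genes (4.75%) were called more positive and 326 (2.73%) more negative with RA.

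Named genes show each course. Izumo1r, with a fold change of -3.08 without RA, stood at 59.0 and 66.5 FPKM in WT and 127 in each TG library with RA (1.01, adjusted p = 0.0038), a difference between doses of 4.09 (adjusted p = 3.7e-05). Irf8 stood at 47.3 and 62.8 FPKM in WT and 165 in each TG library with RA (1.58, adjusted p = 0.0011), a difference of 3.42. Both genes were thus lower than WT without RA and higher than WT with it. Vim took the opposite course, at 9.50 and 15.3 FPKM in WT and 3.45 and 3.82 in TG with RA (-1.50, adjusted p = 0.016), a difference of -3.15 (adjusted p = 0.0040). Gcnt4 was near 0 in all 4 libraries with RA, at most 0.0464 FPKM. For Gimap9 the levels with RA were 97.2 and 87.1 FPKM in WT and 106 and 92.6 in TG (0.10, adjusted p = 0.64), and the difference between doses was 2.66 (adjusted p = 7.6e-05). Rara, Il2, Nedd4, Akr1c18 and Lag3 kept their direction and were called at 10 nM too, by 3.12, -0.89, 0.85, -3.89 and 0.69. The 6 genes with the smallest p for the difference between doses, among those with a mean of at least 2 FPKM in the higher group and groups that did not overlap without RA, were Izumo1r, Gimap5, Spred2, B4galnt4, Galm and Arel1. Spred2, which encodes an inhibitor of Ras signalling, stood at 6.01 and 6.18 FPKM in WT and 3.85 and 3.43 in TG without RA (-0.61 ± 0.06) and at 9.08 and 8.98 against 20.5 and 20.9 with RA (1.11, adjusted p = 1.1e-05). Galm, which encodes galactose mutarotase, stood at 8.16 and 7.68 FPKM in WT and 4.54 and 3.94 in TG without RA (-0.77 ± 0.06) and at 13.8 and 14.4 against 30 and 28.8 with RA (1.01, adjusted p = 4.1e-05). The number called for the difference fell from 892 to 469 without WT replicate 2, to 499 without TG replicate 2 and to 508 without WT replicate 1.

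**Figure D5:**
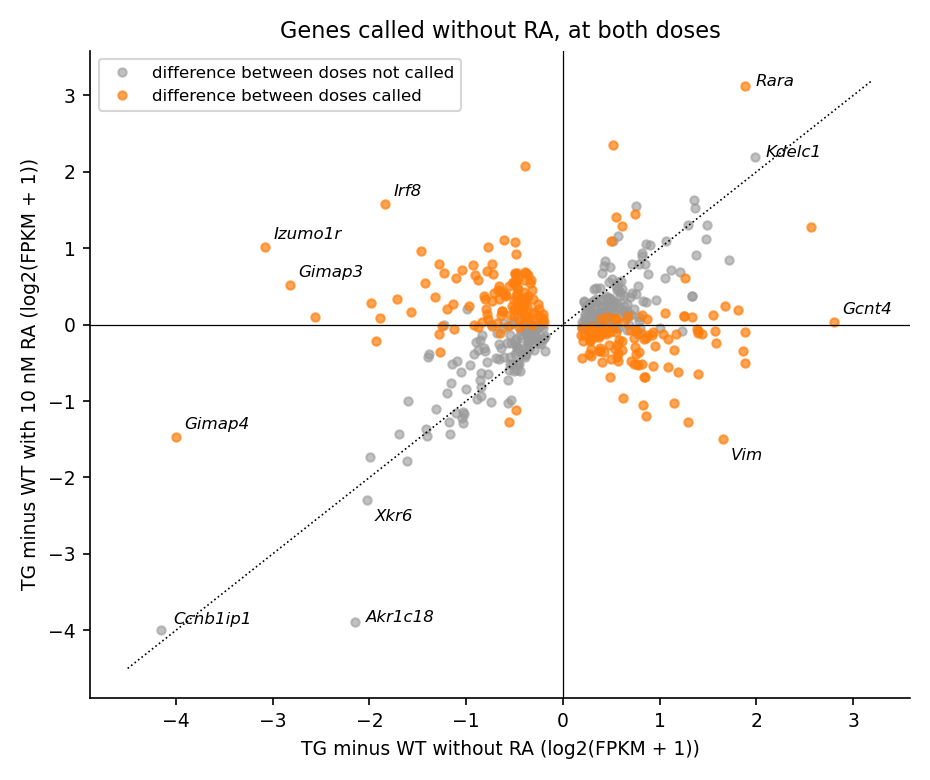
The 514 genes called without RA, with TG minus WT without RA on the x axis and with 10 nM RA on the y axis (both log2(FPKM + 1)); orange points were also called for the difference between doses, and the dotted line marks equal values. Izumo1r and Irf8 lie low on the x axis and above 0 on the y axis, Vim lies above 0 on the x axis and below 0 on the y axis, and Ccnb1ip1, Xkr6 and Kdelc1 lie near the line.

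Calls were unevenly spread over the genome. Of 500 tested genes on chromosome 14, 51 were called without RA (10.2%), and 19 of the 126 genes called in the same direction at both doses lay there. In its stretch from 50 to 60 Mb, 27 of 202 tested genes were called, of which 11 were among 100 T-cell receptor α or δ segments (9 lower, 2 higher) and 16 among 102 other genes. Of 207 windows of 10 Mb with at least 20 tested genes, 7 others had a higher share than this stretch, from 13.6% to 20.0% on 20 to 31 tested genes each. These lay on chromosomes 1, 2, 6, 9, 14 and 15. Ccnb1ip1 (50789248 to 50807732), a meiotic recombination gene, stood at 14.5 and 19.7 FPKM in WT and was listed at 0 in both TG and both KO-labelled libraries (adjusted p = 1.8e-05). Xkr6 (63606503 to 63820809), of the XK family, stood at 2.75 and 3.80 FPKM in WT, 0.0559 and 0.0270 in TG and 0.0159 and 0.00744 in the KO-labelled libraries (-2.03 ± 0.14 for TG minus WT, adjusted p = 0.00018). Kdelc1 on chromosome 1, which encodes a glucosyltransferase of the endoplasmic reticulum, likewise stood at 2.31 and 0.618 FPKM in WT, 7.89 and 8.53 in TG and 8.94 and 8.67 in the KO-labelled libraries (1.99 ± 0.36, adjusted p = 0.021). The call of Kdelc1 ended without WT replicate 2 (1.47), TG replicate 1 (2.04) or TG replicate 2 (1.94) and with a term for sex (1.91, adjusted p = 0.078). In these 3 genes both the TG and the KO-labelled libraries lay apart from WT, at levels like each other. The KO-labelled libraries were female and the WT libraries male by transcripts, so label and sex cannot be told apart between them. Trdc, the δ constant-region gene in that stretch, stood at 7.11 and 7.60 FPKM in WT, 3.42 and 3.57 in TG and 6.97 and 5.33 in the KO-labelled libraries (-0.89, adjusted p = 0.0052). Whether such genes differ with the receptor or with the genetic background of the mouse lines cannot be told apart.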

How the data were processed

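The authors deposited 1 table of FPKM values for 52635 genes in 12 libraries, from a stranded kit, per the labels' protocols. Tools listed, without a role, in the submitters' processing notes are HTSeq 0.6.1, DESeq2, STAR and Trimmomatic 0.32, and the builds are mm10 and GRCm38.p5. The FPKM were analysed as log2(FPKM + 1), keeping the 11922 genes with at least 1 FPKM in at least 2 libraries. Means of 6 groups were fitted with limma 3.58.1 in R 4.3.3 (trended empirical Bayes, 6 residual degrees of freedom), and p-values were adjusted by Benjamini-Hochberg over all genes tested, with a threshold of 0.05.

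Low values were whole multiples of 1 read (within 0.02 of a read) for 95.3% to 95.9% of values per library, which gave the depths, 16289969 to 25534588 reads. Alternatives were a pseudocount of 0.1, no filter, upper-quartile scaling, the 4 libraries alone, the replicate block, a sex term, no X and Y genes, limma-voom on recovered reads and leaving out each library. The fit was tested on simulated data over 11910 genes, of which 11710 were left unchanged. Of 66 genes changed 4-fold in simulated TG libraries without RA 59 were called, of 67 changed 2-fold 25, and of 67 changed 1.5-fold 0. The spread between simulated libraries was a fixed value, not taken from these libraries. These shares therefore do not give the power of the test on the real libraries, where called rises had a median log2 fold change of 0.54.

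Named genes were the 12 largest rises and 12 largest falls among called genes with groups that do not overlap and a mean of at least 2 FPKM, leaving out predicted genes, pseudogenes and receptor segments, up to 4 called members of each main list and 2 of the others, 6 genes for the difference between doses, the Gimap family and a set list, with 2 genes left unreported. Members and lists were chosen with earlier results of these data known. Positions are from GENCODE M21 (GRCm38).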

Additional observations from a re-analysis of the deposited data

Results flagged for a closer look

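The fold change of TG over WT differed between 10 nM RA and no RA by a limma test of the difference itself (adjusted p under 0.05) for 892 genes, 62 of them named here. The values that follow are the fold change at 10 nM less that without RA, in log2(FPKM + 1), with 2 libraries in each of the 4 groups. Libraries were not paired across doses in this test.

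The Gimap genes gained with RA in TG relative to WT, by 1.73 for Gimap1, 3.34 for Gimap3, 2.53 for Gimap4, 1.98 for Gimap5, 1.98 for Gimap6, 2.26 for Gimap8 and 2.66 for Gimap9. Regulatory T-cell genes followed with 4.09 for Izumo1r, 2.07 for Foxp3 and 2.06 for Gpr83. Genes known to be induced by RA gave 1.78 for Asb2, 2.03 for Ccr9, 2.33 for Crabp2, 1.57 for Cyp26b1, 1.84 for Dhrs3, 0.89 for Nrip1 and 1.24 for Tgm2. Rara gave 1.24, Mdk, a heparin-binding growth factor gene, 3.88, and Gfi1 1.71.

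Transcription and signalling genes that were more positive with RA included Irf8 (3.42), Tbx21 (1.88), Stat4 (1.14), Rel (0.77), Nfatc1 (0.69), Smad3 (0.64), Pmepa1 (0.65), Ubash3b (0.72), Spred2 (1.72), Arel1 (1.71), Tbc1d4 (1.71) and Galm (1.78). Surface and other genes of the same sign were Cd4 (0.51), H2-Q4 (0.71), Il10rb (1.02), Itgb2 (0.93), Ltb (0.46) and Bak1 (0.70).

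The cytokine genes Il17f and Il17a were more negative with RA, by -4.23 and -1.19. Genes for receptors gave -1.05 for Il23r, -2.21 for Il7r, -1.48 for Il12rb2, -2.39 for Klrd1, -2.04 for Icos, -1.28 for Cxcr6, -1.12 for P2ry10 and -1.62 for Ly6c1. Vim gave -3.15, Lgals3 -1.98 and Lmna -1.66. Regulators and secreted factors gave -1.28 for Crem, -1.14 for Nfil3, -0.83 for Runx3, -0.92 for Areg and -1.52 for Cxcl10. The remaining genes were Gcnt4 (-2.76), B4galnt4 (-1.88), Crispld2 (-1.82), Capsl (-1.44), Atf6 (-0.58) and Sdf2l1 (-0.46).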

How the results depend on the processing

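The number of genes called without RA, 514 with 268 higher and 246 lower, was 47, 21 and 26 when only the 4 libraries entered the fit and 200, 107 and 93 with a term for sex. Leaving out 1 library gave 131 to 224 in all, 67 to 111 higher and 61 to 113 lower. Without the filter on low values 160 were lower. A threshold of 0.01 gave 128 and of 0.1 gave 910. The split of higher and lower calls was 243 and 269 with a pseudocount of 0.1 and 250 and 257 with upper-quartile scaling. The replicate block gave 823, 409 and 414. With it Il17a (adjusted p = 0.034), Il17f (0.029), Il22 (0.035), Il9 (0.023), Rxra (0.027) and Rarg (0.037) were called by limma, and the Th17 calls went from 2 to 6. Same-numbered libraries had a correlation of deviations of 0.16 between WT and TG, 0.33 between doses in WT and 0.15 between doses in TG, and with 2 numbers the labels do not show a pairing. The count for the difference between doses was 469 to 712 when 1 library was left out and 1248 with the replicate block, against 892.

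Rara kept its call and direction in every fit run (1.78 to 1.98). Of the 79 named genes called, 29 were called without each library in turn and 18 under every alternative run. The median of the genes that stood high for RA in KO-labelled cells moved to -0.16 with the pseudocount of 0.1, -0.10 with the sex term, -0.19 with limma-voom on recovered reads, and -0.18 and -0.10 with 50 and 200 genes a side. That of the genes that stood low moved to 0.11 with 200.

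Genes not called changed sign in some fits. When 1 library was left out Cd74 ran from -1.97 to 0.64, Dhrs3 from -0.29 to 0.03, Ifng from -0.76 to 0.04 and Ighm from -1.36 to 0.11, with each lowest value without WT replicate 1 and each highest without WT replicate 2. Crabp2 ran from -0.28 without WT replicate 2 to 0.16 without WT replicate 1, and was 0.07 with the sex term. Il10 ran from -0.19 without TG replicate 2 to 0.21 without TG replicate 1, and was -0.16 without WT replicate 1, -0.01 with upper-quartile scaling and -0.08 with the sex term. Il21 was -0.04 with the sex term and -0.05 without TG replicate 2, and Xist -0.05 with the sex term. The cause was not tested. With 2 libraries a group, an exact permutation test of 1 gene cannot go below a two-sided p of 0.333.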

Other observations

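Few calls among homing and trafficking genes held when 1 library was left out. Over all tested genes 2.25% rose and 2.06% fell, the background for each list count in this section. Of 15 tested chemokine receptor genes 3 rose and 1 fell, with a median log2 fold change of -0.21. These 4 calls became 0 without WT replicate 1, 2 without WT replicate 2 and 1 without either TG library. Cxcr6, a receptor of tissue-resident T cells, stood at 2.85 and 4.01 FPKM in WT and 7.16 and 9.67 in TG (1.09 ± 0.16, adjusted p = 0.0091). Both TG libraries were above both WT libraries, and the call ended without WT replicate 1 (0.90) or TG replicate 2 (0.90). Of 9 chemokine ligand genes 1 rose and 0 fell, with a median of -0.55 and 8 fold changes below 0. The rise was Cxcl10, which attracts Th1 cells, at 0.492 and 0.602 FPKM in WT and 2.77 and 3.44 in TG (1.40 ± 0.13, adjusted p = 0.0012). Its fold change without each library in turn ran from 1.29 to 1.52. Of 12 integrin genes 0 rose and 2 fell, and the 2 became 0 without WT replicate 1 or TG replicate 2. Itgb2, the β2 chain of the LFA-1 integrin, stood at 147 and 130 FPKM in WT and 85.2 and 74.2 in TG (-0.79 ± 0.12, adjusted p = 0.014), and the call ended without WT replicate 1 (-0.70) or TG replicate 2 (-0.69). The gut-homing genes Itgb7 and Gpr15 did not pass: Itgb7, the partner of the α4 integrin, stood at 54.3 and 46.9 FPKM in WT and 72.3 and 66.6 in TG (0.45 ± 0.16, adjusted p = 0.17), and Gpr15, a receptor of the large intestine, at 0.721 and 0.613 FPKM in WT and 1.10 and 1.28 in TG (0.39 ± 0.17, adjusted p = 0.27).

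Among 38 tested interferon regulatory factors and interferon-stimulated genes 5 rose and 2 fell, with a median of 0.04. The rises were Cxcl10, Ifit1, Gbp4, Gbp5 and Isg15, the falls Irf8 and Tap1. These 7 calls became 2 without either WT library and 4 without either TG library. The call of Tap1 ended without WT replicate 1 (-0.25), WT replicate 2 (-0.26) or TG replicate 2 (-0.22) and with a term for sex (-0.24, adjusted p = 0.078), whereas Cxcl10 and Irf8 were called in each of these fits. Of 20 genes of MHC class I and peptide processing 0 rose and 3 fell, and 18 fold changes were below 0. These 3 calls became 0 without WT replicate 1 or TG replicate 2. H2-Q4, a nonclassical class I gene whose reads may be divided with related H2 genes, stood at 30.9 and 29.7 FPKM in WT and 22.4 and 19.7 in TG (-0.51 ± 0.07, adjusted p = 0.0086), and the call ended without WT replicate 1 (-0.48) or TG replicate 2 (-0.42). Of 23 genes of the TGF-β pathway 0 rose and 3 fell, with a median of -0.10, and none of the 3 was called in any fit that left out 1 library. Smad3, which carries the TGF-β signal, stood at 28.7 and 27.1 FPKM in WT and 21.1 and 19.6 in TG (-0.44 ± 0.08, adjusted p = 0.024). Of 16 genes of the Bcl-2 family 1 rose and 3 fell. These 4 calls became 0 without WT replicate 2 or TG replicate 2, 1 without TG replicate 1 and 2 without WT replicate 1. Bak1, a promoter of cell death, stood at 19.9 and 21.1 FPKM in WT and 12.8 and 12.1 in TG (-0.68 ± 0.10, adjusted p = 0.008), and the call ended without WT replicate 2 (-0.64) or TG replicate 2 (-0.64). Of 40 genes of glycolysis and hypoxia 2 rose and 2 fell, with a median of 0.07 and 0 calls in each fit that left out 1 library.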
